A study of Homo sapiens with 18 samples.

Results

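The genes described here encode the CRL4 ubiquitin ligase that carries cereblon, and 5 proteins that cereblon-binding drugs are known to send to it. They are CRBN, DDB1, CUL4A, CUL4B and RBX1 for the ligase and GSPT1, IKZF2, ZFP91, CSNK1A1 and SALL4 for the substrates. The 10 genes were taken by name from a table of 57500 genes, and each name matched 1 gene. The list follows what their proteins do and was drawn up with earlier results of these data known. The table holds poly-A RNA profiles of 18 libraries in 6 groups of 3. The groups are the established non-small cell lung cancer (NSCLC) lines SNU2535, NCI-H3122 and NCI-H2228, each given DMSO or TRI-611, and the labels give every line the genotype WT. TRI-611, a degrader of the kinase ALK of the molecular glue type per the series title, was used at 3 µM for 3 h, and DMSO is the solvent control. The labels give 1 growth and 1 treatment protocol for all cells. The question was whether the RNA of this ligase and of its known drug-induced substrates differed after the degrader, and whether the lines differed in it from the start. The labels give a batch of 1 to 3 that equals the replicate number, but whether the 3 libraries of 1 group are separate cultures is not stated. If they are not, the spread behind the p-values is technical, and the p-values describe these samples alone.

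Cereblon is the substrate receptor of a cullin-RING ligase. DDB1 joins it to the scaffold CUL4A or CUL4B, and RBX1 at the far end of the scaffold recruits the ubiquitin-conjugating enzyme. Molecular glues and the thalidomide drugs bind a pocket of cereblon and make a new surface to which other proteins, called neosubstrates, attach and are then ubiquitinated and degraded. Among these are the translation termination factor GSPT1, the zinc finger transcription factors IKZF2 (Helios) and SALL4, the zinc finger protein ZFP91, and the kinase CSNK1A1 (casein kinase 1 alpha). Degradation acts on protein, which these RNA libraries do not measure.

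The stretches below are the DNA just before the start sites of the 4 members whose RNA responses are described at most length, and they are shown so that the results on these genes can be set beside their regulatory sequence. These 4 were picked after their values were seen, as members called in opposite directions. They come from RefSeq promoter windows on GRCh38.p14, which reach from 250 bases before to 50 after each start. Of the 10 members, 9 had at least 1 window, with 19 windows in all. Each line reads 5′ to 3′ on the strand of the gene, in lower case, with matches to the motifs searched in capitals. The CRBN stretch lies at chr3:3179728-3179967, minus strand. GSPT1 is shown at chr16:11916655-11916904, minus strand, before the outermost of its starts. IKZF2 is at chr2:213152457-213152706, minus strand, and ZFP91 at chr11:58578813-58579062, plus strand.
CRBN: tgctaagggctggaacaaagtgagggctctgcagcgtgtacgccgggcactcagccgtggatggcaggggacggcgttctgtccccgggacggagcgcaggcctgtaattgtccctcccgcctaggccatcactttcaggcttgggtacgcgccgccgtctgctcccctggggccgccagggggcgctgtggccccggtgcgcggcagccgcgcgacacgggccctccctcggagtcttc
CRBN, around its forkhead match: ctcctttgcggGTAAACAgacatggccgg
GSPT1: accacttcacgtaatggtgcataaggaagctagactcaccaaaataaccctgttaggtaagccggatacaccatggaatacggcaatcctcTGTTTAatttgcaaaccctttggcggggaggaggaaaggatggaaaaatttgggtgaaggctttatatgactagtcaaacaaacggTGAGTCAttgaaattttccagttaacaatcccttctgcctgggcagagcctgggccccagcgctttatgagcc
IKZF2: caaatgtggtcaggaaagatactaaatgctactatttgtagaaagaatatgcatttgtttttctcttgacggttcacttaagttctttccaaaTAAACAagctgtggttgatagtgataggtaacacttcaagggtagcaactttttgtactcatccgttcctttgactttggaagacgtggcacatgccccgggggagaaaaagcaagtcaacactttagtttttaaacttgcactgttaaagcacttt
ZFP91: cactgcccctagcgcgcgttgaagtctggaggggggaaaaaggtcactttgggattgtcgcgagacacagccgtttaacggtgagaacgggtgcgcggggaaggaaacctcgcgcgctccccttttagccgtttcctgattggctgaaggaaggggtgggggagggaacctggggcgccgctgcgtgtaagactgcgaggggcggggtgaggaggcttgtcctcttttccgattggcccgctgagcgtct
The 5 motifs were searched on both strands, so that a match can also appear as the reverse complement (TGTTTA for TAAACA). The forkhead core TAAACA lay in 7 of the 19 member windows, those of CRBN, CUL4B, GSPT1 and IKZF2. It lay in 12.3% of the 35116 windows of this length in the table. Windows of a gene can overlap, so that 1 site can be counted in 2 windows, as for CRBN. The longer forkhead site GTAAACA, which contains the core, was in 3.42% of all windows and among the members only in CRBN, at chr3:3179680-3179708 in the stretch of 29 bases above. Its first base was base 21 from 1 CRBN start, with the start counted as base 1, and lay 6 bases before another start. The AP-1 letters TGANTCA (7.71% of all windows) were found in 2 member windows, of GSPT1 and CSNK1A1. The ETS letters CCGGAAG (10.3%) were in 5, of CUL4A, CUL4B, GSPT1 and CSNK1A1, and the E-box CACGTG (7.26%) in 2, of CUL4B and RBX1. The printed ZFP91 stretch and the longer CRBN stretch hold none of the 5. These are matches of letters and show no binding.

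The values are TPM (transcripts per 1000000, a measure per transcript length). Setting different genes side by side assumes that the lengths and counts behind TPM are right, and the sources do not give how TPM was derived. Differences are on the log2(TPM + 1) scale, which understates the change of genes near 1 TPM. Each library had 23766 to 25921 genes above 0 TPM, and mitochondrially encoded genes took 7.59% to 15.0% of TPM, the highest share being in TRI-611 replicate 3 of NCI-H3122. All 6 epithelial markers reached 1 TPM in each line, at unlike levels. In the controls of SNU2535, NCI-H3122 and NCI-H2228, CDH1 averaged 567, 167 and 5.65 TPM and EPCAM 409, 666 and 121 TPM. The other epithelial markers were also lowest in NCI-H2228. Of 4 lung adenocarcinoma markers, all reached 1 TPM in SNU2535 and NCI-H2228 but 2 in NCI-H3122. The 8 markers of blood, endothelium and fibroblasts summed to 14.9 to 404 TPM per library, most of it from the collagen gene COL1A1 (135, 12.3 and 380 TPM in the controls of SNU2535, NCI-H3122 and NCI-H2228). The fibroblast markers COL3A1 and DCN and the blood marker PTPRC reached at most 0.0675, 0.0119 and 0.129 TPM in any library. CD14, another blood marker, lay at 1.01 to 8.72 TPM. CD3E, PECAM1 and VWF reached at most 0.893, 6.71 and 2.44 TPM. In each group 3 or 4 of the 8 markers reached 1 TPM in at least 1 library, and 1 to 3 were at 0. A gene was called when limma, fitted over all genes of the comparison, gave an adjusted p under 0.05, with no minimum size.

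Many genes were called after TRI-611, which sets the background for the members. In SNU2535, 10.7% of the 16252 genes tested rose and 18.1% fell. For NCI-H3122 the shares were 20.6% and 13.4% of 15311, and in NCI-H2228 4.8% of 16806 rose and 6.4% fell. The split of rises to falls depended on scaling: it was 1731 to 2941 in SNU2535 but 2500 to 2415 after quantile normalization, 3160 to 2054 in NCI-H3122 but 2508 to 3163 after median-ratio scaling, and 806 to 1076 in NCI-H2228 but 1181 to 924 without mitochondrially encoded genes. Of the members, 3 rose and 2 fell among 9 tested in SNU2535, 4 rose and 2 fell among 10 in NCI-H3122, and 0 rose and 2 fell among 9 in NCI-H2228. In these fits no ligase subunit was called lower in any line, and the falls were GSPT1 and ZFP91 each time. With 5 subunits and these shares of falling genes, the lack of a fall is no result about the subunits. CUL4A in SNU2535 (limma adjusted p = 0.0687) was called lower over genes with a mean TPM of 5 or more (0.0463). It was also called lower in a fit of all 18 libraries (0.0355). With the replicate block the members called numbered 5, 4 and 1 in the 3 lines. Of all genes, that fit called 4057 of 16252 in SNU2535, 4294 of 15311 in NCI-H3122 and 1724 of 16806 in NCI-H2228. SALL4 passed the filter on low values only in NCI-H3122, where 10 members were tested.

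CRBN, the drug-binding receptor itself (ENSG00000113851, GRCh38 chromosome 3, 3144628 to 3179727, minus strand), was the scarcest of the subunits and rose in SNU2535 and NCI-H3122. In SNU2535 the 3 DMSO libraries held 4.91, 4.85 and 4.73 TPM and the 3 TRI-611 libraries 6.42, 6.75 and 6.36 TPM. Every treated library lay above every control, and the mean was 1.35 times the control mean (log2 difference 0.36, SE 0.0738, limma adjusted p = 0.00822). In a bulk library, fewer cells of a kind and less RNA per cell cannot be told apart. In NCI-H3122 the values were 5.44, 4.68 and 5.02 TPM with DMSO and 5.84, 6.73 and 7.40 TPM with TRI-611. The groups again did not overlap, with wider spread among the treated libraries (log2 difference 0.34, SE 0.0999, limma adjusted p = 0.0339). By batch the NCI-H3122 differences were 0.09, 0.45 and 0.48 for batches 1, 2 and 3. With the replicate block the NCI-H3122 call was lost (limma adjusted p = 0.0685), as it was with no filter on low values (0.0828), under median-ratio scaling (0.0535) and quantile normalization (0.0821), and without DMSO replicates 2 (0.107) or 3 (0.0880) or TRI-611 replicates 2 (0.0890) or 3 (0.1001), in a range of 0.00401 to 0.107 over 16 alternatives. The SNU2535 call was made in all 16 (0.00279 to 0.0332), with batch differences of 0.33, 0.40 and 0.36. NCI-H2228 held 6.66, 5.76 and 5.76 TPM with DMSO and 7.17, 6.18 and 6.15 TPM with TRI-611. There batch 1 stood above the others in both groups and the groups overlapped (log2 difference 0.09, 95% interval -0.13 to 0.31, limma adjusted p = 0.630). Within the 3 batches the difference was 0.09, 0.09 and 0.08. It was called in none of the 16 alternatives, the replicate block among them (limma adjusted p = 0.470 to 0.928).

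CRBN overlaps TRNT1, the gene of a tRNA-maturing enzyme on the opposite strand, over 6252 bases. Without a stated strand setting, their reads in the overlap cannot be told apart. TRNT1 fell in SNU2535, from 9.08 ± 0.947 to 6.68 ± 0.585 TPM (SD, n = 3 each), or -0.39 on the log2 scale (limma adjusted p = 0.0177), while CRBN rose. In NCI-H3122 and NCI-H2228 TRNT1 gave log2 differences of -0.20 and -0.21 (limma adjusted p = 0.0794 and 0.147).

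DDB1, the adaptor between receptor and scaffold (ENSG00000167986, chromosome 11, 61299451 to 61342596, minus strand), stood far above CRBN. With DMSO its TPM divided by that of CRBN gave 20.1 ± 0.431 for SNU2535, 14.3 ± 1.11 for NCI-H3122 and 13.9 ± 0.722 for NCI-H2228 (SD, n = 3 each). With TRI-611 the ratio was 15.6 ± 0.378, 11.9 ± 1.48 and 12.6 ± 1.21 in the same order (SD, n = 3 each). DDB1 itself rose only in NCI-H3122, where it went from 71.0, 71.0 and 73.3 TPM to 78.5, 79.4 and 77.7 TPM. The groups were apart, by a small amount (log2 difference 0.13, SE 0.0344, limma adjusted p = 0.0234). That call was lost with the replicate block (limma adjusted p = 0.0866), plain empirical Bayes (0.0613) and median-ratio scaling (0.199), and without DMSO replicates 1 (0.0749), 2 (0.0724) or 3 (0.0532) or TRI-611 replicates 1 (0.0504) or 2 (0.0631), in a range of 0.00433 to 0.199. By batch the differences were 0.14, 0.16 and 0.08. SNU2535 measured 96.2, 98.9 and 95.7 TPM with DMSO and 103, 103 and 100.1 TPM with TRI-611, groups that did not overlap but were not called (log2 difference 0.07, limma adjusted p = 0.150), with a range of 0.0166 after quantile normalization to 0.317. In NCI-H2228 the range was 80.9 to 87.0 TPM with DMSO and 79.3 to 83.7 TPM with TRI-611 (log2 difference -0.04, limma adjusted p = 0.583). DDB1 overlaps TKFC on the opposite strand over 9387 bases, and TKFC was called in none of the 3 lines (limma adjusted p = 0.119 to 0.836).

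RBX1, the RING subunit that all these ligases need (ENSG00000100387, chromosome 22, 40951347 to 40973309, plus strand), passed the test in no line. It ranged from 83.4 to 96.3 TPM with DMSO and 86.6 to 88.8 TPM with TRI-611 in SNU2535, from 55.8 to 59.8 and 53.4 to 60.5 TPM in NCI-H3122, and from 27.8 to 31.3 and 29.7 to 31.1 TPM in NCI-H2228. The treated and control libraries overlapped in each line. The log2 differences were -0.02 (95% interval -0.14 to 0.10), 0.02 (-0.12 to 0.15) and 0.04 (-0.09 to 0.16), and the sign turned under median-ratio scaling in SNU2535 (0.0045) and NCI-H3122 (-0.05) and under quantile normalization in SNU2535 (0.03).

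CUL4B, 1 of the 2 scaffold paralogues (ENSG00000158290, chromosome X, 120524609 to 120575794, minus strand), rose in SNU2535 and NCI-H3122. It measured 35.2, 33.3 and 35.9 TPM with DMSO and 40.9, 43.6 and 41.0 TPM with TRI-611 in SNU2535. All 3 treated libraries exceeded all 3 controls (log2 difference 0.26, SE 0.0469, limma adjusted p = 0.00494). In NCI-H3122 the values were 31.5, 28.0 and 31.7 TPM against 35.8, 40.2 and 38.7 TPM. This was a rise to 1.26 times the control mean with no overlap (log2 difference 0.32, SE 0.0653, limma adjusted p = 0.00719). By batch the differences were 0.21, 0.38 and 0.19 in SNU2535 and 0.18, 0.51 and 0.28 in NCI-H3122. NCI-H2228 held 51.9, 47.0 and 48.6 TPM with DMSO and 56.1, 50.2 and 54.7 TPM with TRI-611. Its groups overlapped, with the treated library the higher of each batch (log2 difference 0.12, 95% interval -0.01 to 0.25, limma adjusted p = 0.216). It was called in none of the 16 alternatives, which include the replicate block (limma adjusted p = 0.0963 to 0.468).

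CUL4A (ENSG00000139842, chromosome 13, 113208193 to 113267108, plus strand) was not called in any line. In SNU2535 it stood at 56.7, 56.2 and 60.4 TPM with DMSO and 49.6, 54.1 and 53.4 TPM with TRI-611. The treated libraries were all below the controls, short of the threshold (log2 difference -0.14, SE 0.0486, limma adjusted p = 0.0687, and 0.0463 over genes with a mean TPM of 5 or more or 0.0355 in a fit of all 18 libraries, in a range of 0.0355 to 0.297). NCI-H3122 ranged from 45.7 to 48.3 TPM with DMSO and 44.4 to 48.9 TPM with TRI-611 (log2 difference -0.00015, 95% interval -0.11 to 0.11, limma adjusted p = 0.999, with the sign turned under quantile normalization, 0.0020). NCI-H2228 ranged from 73.8 to 76.8 and 69.7 to 77.0 TPM (log2 difference -0.02, limma adjusted p = 0.842, or 0.02 under quantile normalization). PCID2, which overlaps CUL4A over 523 bases on the opposite strand, was called in no line.

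The share of CUL4A in the summed TPM of the 2 scaffolds followed from these values, and no test was applied to it. With DMSO the share was 61.7%, 62.8% and 62.7% in the SNU2535 libraries, and with TRI-611 it was 54.8%, 55.4% and 56.5%. The means were 62.4% ± 0.605 and 55.6% ± 0.879 (SD, n = 3 each), and no treated library reached the lowest control. NCI-H3122 went from 60.7% ± 1.28 to 55.1% ± 0.276 and NCI-H2228 from 60.5% ± 1.13 to 58.1% ± 0.445 (SD, n = 3 each), likewise without overlap. With DMSO and TRI-611 the scaffolds summed to 92.5 ± 3.42 and 94.2 ± 3.56 TPM for SNU2535, to 77.2 ± 3.16 and 85.1 ± 4.53 TPM for NCI-H3122, and to 124 ± 3.34 and 128 ± 6.99 TPM for NCI-H2228 (SD, n = 3 each).

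**Figure D1:**
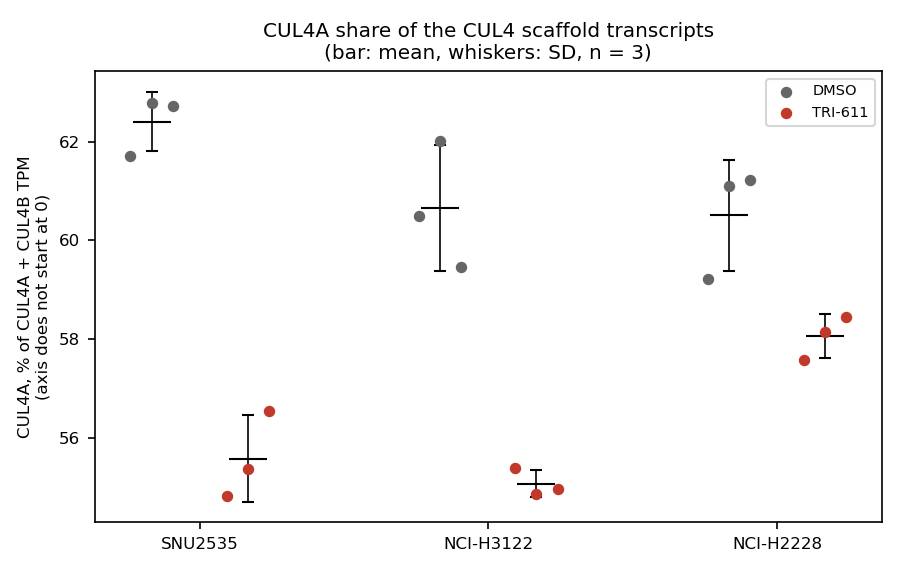
CUL4A as a percentage of CUL4A plus CUL4B TPM in each library, by line, with DMSO in grey and TRI-611 in red (bar: mean, whiskers: SD, n = 3, vertical axis not from 0). The treated libraries lie below the controls of their own line, at means of 55.6%, 55.1% and 58.1% against 62.4%, 60.7% and 60.5%.

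GSPT1, the release factor eRF3a and a substrate of several glue degraders (ENSG00000103342, chromosome 16, 11868128 to 11916082, minus strand), fell in all 3 lines. The SNU2535 controls held 145, 139 and 143 TPM and the treated libraries 114, 118 and 113 TPM. The mean fell to 0.808 of the control mean (log2 difference -0.31, SE 0.0335, limma adjusted p = 0.000432). In NCI-H3122 it went from 184, 178 and 183 TPM to 155, 164 and 159.7 TPM, a mean 0.879 of control (log2 difference -0.19, SE 0.0348, limma adjusted p = 0.00500). The NCI-H2228 values were 203, 195 and 194 TPM against 171, 162 and 174 TPM, or 0.855 of control (log2 difference -0.22, SE 0.0384, limma adjusted p = 0.00780). In each line every treated library was below every control, and each of the 9 batch differences was negative, from -0.34 to -0.12. The NCI-H2228 call was lost in a single setting, plain empirical Bayes (limma adjusted p = 0.0530, in a range of 0.000175 to 0.0530), and the calls in SNU2535 and NCI-H3122 were made in all 16 alternatives. GSPT1 stayed among the most abundant members in each group, with a ratio to CRBN of 29.5 ± 0.8002 with DMSO and 17.7 ± 0.170 with TRI-611 for SNU2535, 36.1 ± 2.13 and 24.2 ± 2.503 for NCI-H3122, and 32.7 ± 1.95 and 26.1 ± 2.24 for NCI-H2228 (SD, n = 3 each).

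IKZF2, or Helios, a lymphoid transcription factor of the Ikaros family (ENSG00000030419, chromosome 2, 212999691 to 213152427, minus strand), showed the widest differences of the members tested in SNU2535 and NCI-H3122, and it rose in both. In NCI-H3122 the controls held 7.75, 7.38 and 7.51 TPM and the treated libraries 16.0, 16.4 and 15.2 TPM. The mean was 2.10 times that of the controls (log2 difference 0.98, SE 0.0578, limma adjusted p = 1.92e-05), with batch differences of 0.96, 1.05 and 0.93. In SNU2535 the values were 7.91, 6.68 and 6.90 TPM with DMSO and 11.4, 11.7 and 12.2 TPM with TRI-611. The treated mean was 1.64 times the control mean (log2 difference 0.65, SE 0.0762, limma adjusted p = 0.000615), with batch differences of 0.48, 0.73 and 0.74. Both calls were made in all 16 alternatives. NCI-H2228 carried little IKZF2 RNA, at 1.55, 1.53 and 1.67 TPM with DMSO and 2.23, 1.85 and 2.37 TPM with TRI-611. All treated values were above all controls and the mean ratio was 1.36, but the difference was not called (log2 difference 0.28, 95% interval -0.04 to 0.61, limma adjusted p = 0.258, and 0.0128 in a fit of all 18 libraries, in a range of 0.0128 to 0.487). The gene AC093865.1 lies in IKZF2 on the same strand over 21855 bases at 0 to 3.90 TPM, so that part of its reads may belong to either gene.

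ZFP91, a zinc finger protein with ubiquitin ligase activity (ENSG00000186660, chromosome 11, 58579111 to 58621042, plus strand), fell in all 3 lines. In NCI-H3122 the controls held 119.9, 116 and 118 TPM and the treated libraries 88.8, 93.1 and 81.0 TPM. The mean was 0.743 of control (log2 difference -0.43, SE 0.0530, limma adjusted p = 0.000710), with batch differences of -0.43, -0.31 and -0.53. In SNU2535 it went from 86.6, 82.2 and 81.5 TPM to 69.7, 75.9 and 69.1 TPM (ratio 0.858, log2 difference -0.22, SE 0.0475, limma adjusted p = 0.0111). The SNU2535 groups did not overlap, and the call was made in all 16 alternatives, as it was in NCI-H3122. NCI-H2228 went from 86.3, 83.3 and 80.9 TPM to 73.5, 70.5 and 77.3 TPM, also without overlap (ratio 0.884, log2 difference -0.18, SE 0.0464). This call was close to the threshold (limma adjusted p = 0.0451). It was lost with the replicate block (0.0746), with no filter (0.115), quantile normalization (0.103), plain empirical Bayes (0.121) or no mitochondrially encoded genes (0.0594), and without DMSO replicates 1 (0.139), 2 (0.116) or 3 (0.0516) or TRI-611 replicates 1 (0.125) or 2 (0.113), in a range of 0.0217 to 0.139. The batch differences were -0.23, -0.24 and -0.06 in NCI-H2228 and -0.31, -0.11 and -0.23 in SNU2535. The read-through gene ZFP91-CNTF, which shares the strand and 41871 bases, was listed at 0 to 0.292 TPM.

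CSNK1A1, the casein kinase that lenalidomide directs to cereblon (ENSG00000113712, chromosome 5, 149492197 to 149551552, minus strand), was abundant and called in none of the lines. SNU2535 measured 153, 159 and 152 TPM with DMSO and 149, 156 and 152 TPM with TRI-611. NCI-H3122 measured 157, 149.8 and 155 TPM against 149, 148 and 145 TPM, and NCI-H2228 154, 147 and 150.1 TPM against 145, 141 and 139 TPM. Groups overlapped in SNU2535 and were narrowly apart in the other lines. The log2 differences were -0.02 (95% interval -0.10 to 0.05, limma adjusted p = 0.647), -0.06 (-0.14 to 0.02, 0.223) and -0.08 (-0.16 to -0.0034, 0.175). In SNU2535 the sign turned under median-ratio scaling (0.0021) and quantile normalization (0.02), and in NCI-H3122 median-ratio scaling made it a call (log2 difference -0.13, limma adjusted p = 0.00708, in a range of 0.00708 to 0.448).

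SALL4, a stem cell transcription factor and the neosubstrate tied to thalidomide's effect on limbs (ENSG00000101115, chromosome 20, 51782331 to 51802520, minus strand), was barely present. Its means with DMSO and TRI-611 were 0.652 ± 0.0440 and 0.604 ± 0.142 TPM in SNU2535, 1.11 ± 0.232 and 1.501 ± 0.314 TPM in NCI-H3122, and 0.226 ± 0.0392 and 0.418 ± 0.0934 TPM in NCI-H2228 (SD, n = 3 each). The groups overlapped in SNU2535 and NCI-H3122 but not in NCI-H2228. The single test, in NCI-H3122, gave a log2 difference of 0.24 (95% interval -0.14 to 0.63, limma adjusted p = 0.309).

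**Figure D2:**
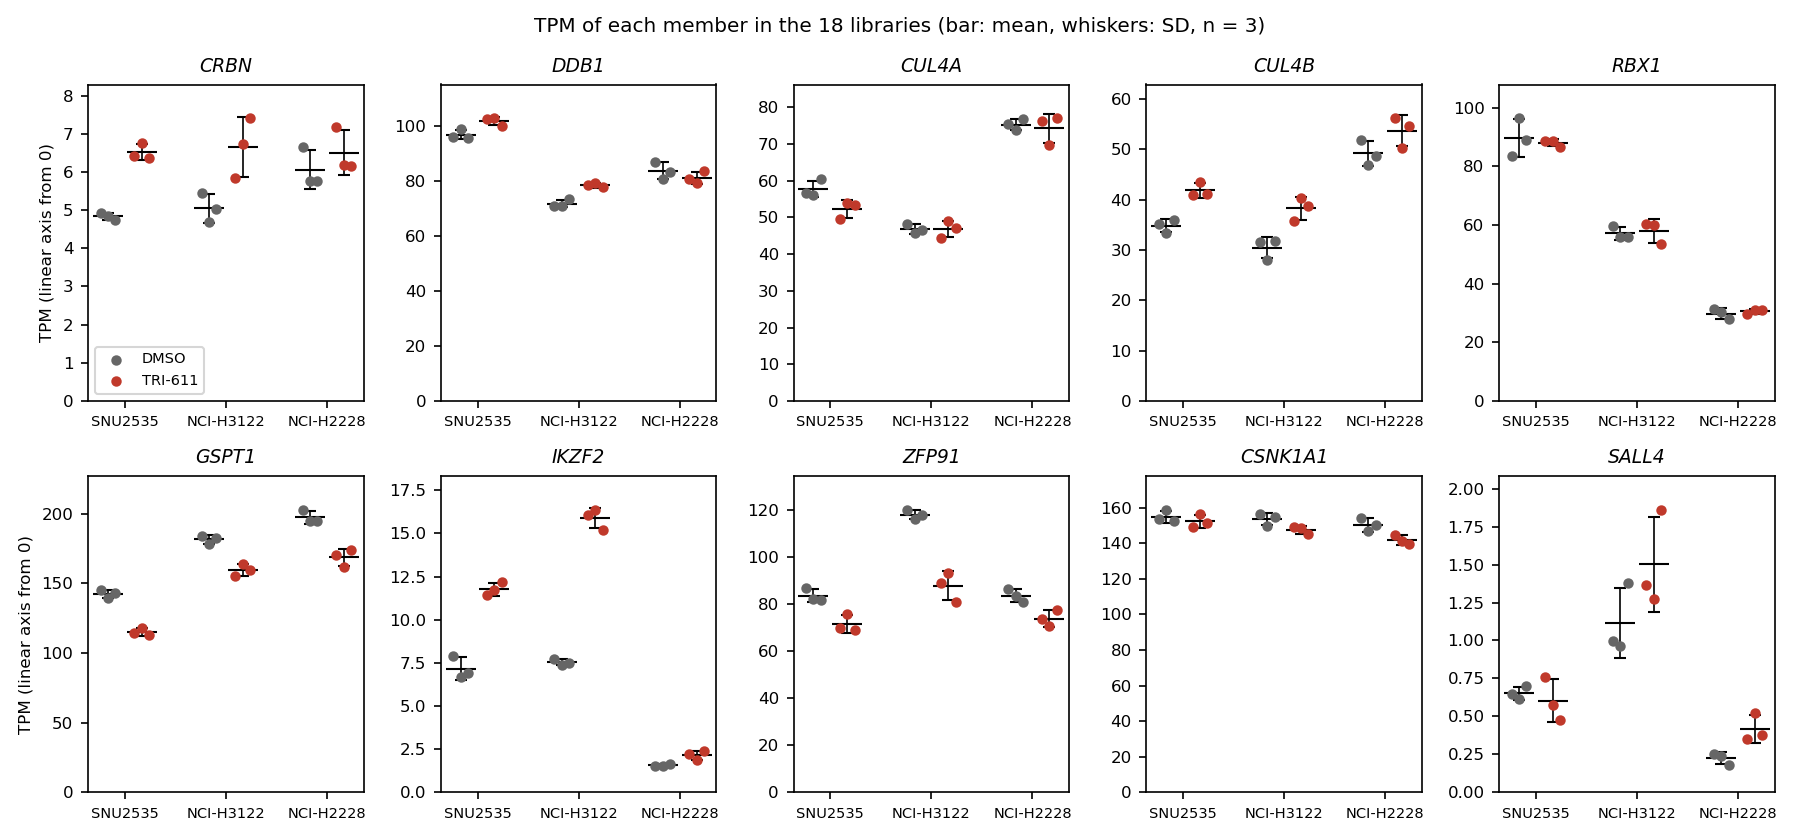
TPM of the 10 genes in the 18 libraries on linear axes from 0, by line, with DMSO in grey and TRI-611 in red (points: libraries, bar: mean, whiskers: SD, n = 3). GSPT1 and ZFP91 are lower with TRI-611 in each line, and IKZF2 reaches 15.9 TPM in treated NCI-H3122 against 7.55 TPM in its controls and 1.58 TPM in NCI-H2228 controls.

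**Figure D3:**
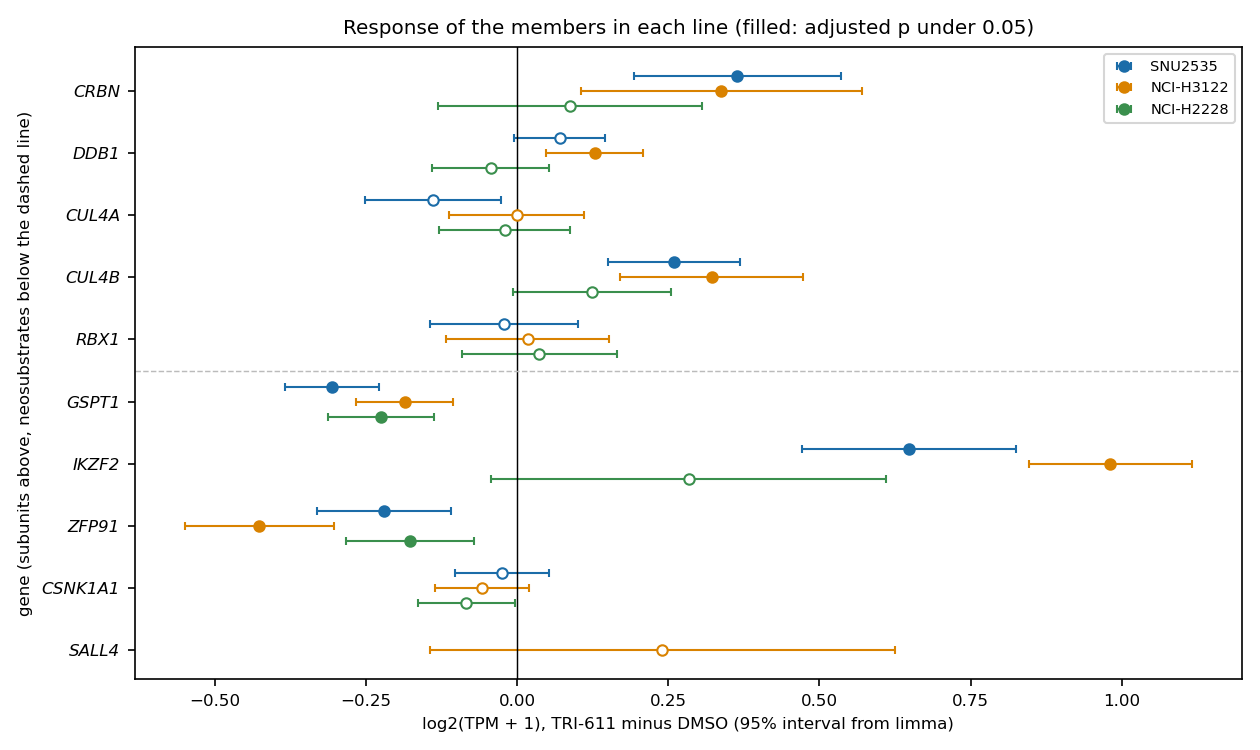
Log2 difference in TPM + 1 between TRI-611 and DMSO for each gene and line with the 95% interval from limma (horizontal axis), filled where the adjusted p is under 0.05. Filled points to the right are IKZF2, CRBN, CUL4B and, in NCI-H3122, DDB1, and those to the left are GSPT1 and ZFP91. SALL4 is drawn for NCI-H3122 alone.

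The DMSO libraries were then compared between lines, in 1 fit of 9 libraries over 18233 genes. Most genes differed: SNU2535 was higher than NCI-H3122 for 45.4% and lower for 30.7%, higher than NCI-H2228 for 32.4% and lower for 42.6%, and NCI-H3122 was higher than NCI-H2228 for 30.0% and lower for 49.3%. Of the 9 members tested, 4 were higher and 2 lower in the first pair, 3 higher and 4 lower in the second, and 3 higher and 5 lower in the third. These shares lie near the background and read as no property of the members. The median log2 difference of all genes was 0.16, -0.11 and -0.25 in the 3 pairs and moved to 0.01, -0.03 and -0.01 under median-ratio scaling and to -0.08, -0.01 and 0.09 under quantile normalization. Both scalings also evened the split of calls, to 7161 higher and 6829 lower or 6527 and 7571 in the first pair (8270 and 5606 as deposited) and to 7117 and 7393 or 7809 and 6717 in the third (5478 and 8983 as deposited). Levels are therefore given as TPM and also relative to the median of all genes.

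IKZF2 and RBX1 differed most between lines. IKZF2 averaged 7.16 ± 0.655 TPM in SNU2535, 7.55 ± 0.185 TPM in NCI-H3122 and 1.58 ± 0.0773 TPM in NCI-H2228 (SD, n = 3 each). It was 4.52 and 4.76 times higher in SNU2535 and NCI-H3122 than in NCI-H2228 (log2 difference 1.66 and 1.73, or 1.77 and 1.98 relative to the median, limma adjusted p = 3.3e-08 and 1.68e-08). SNU2535 and NCI-H3122 were not called different (log2 difference -0.07, limma adjusted p = 0.424), except after median-ratio scaling (-0.25, 0.0142) and quantile normalization (-0.44, 0.000586). RBX1 averaged 89.5 ± 6.48, 57.1 ± 2.27 and 29.8 ± 1.82 TPM in SNU2535, NCI-H3122 and NCI-H2228 (SD, n = 3 each), a descending order in which each step was called (log2 difference 0.64 and 0.92, limma adjusted p = 7.85e-06 and 4.34e-07) and kept its sign relative to the median (0.48 and 1.17). CUL4A and CUL4B ran the other way, with the highest level in NCI-H2228. CUL4A stood at 75.3 ± 1.49 TPM there against 57.7 ± 2.29 in SNU2535 and 46.8 ± 1.33 in NCI-H3122 (SD, n = 3 each), and all 3 steps were called (limma adjusted p = 1.24e-07 to 6.57e-05), with differences relative to the median of 0.14, -0.27 and -0.42 in the order of pairs above. CUL4B stood at 49.2 ± 2.51 TPM in NCI-H2228, 34.8 ± 1.32 in SNU2535 and 30.4 ± 2.08 in NCI-H3122 (SD, n = 3 each). Its step between SNU2535 and NCI-H3122 (log2 difference 0.19, limma adjusted p = 0.0145) shrank to 0.03 relative to the median, turned to -0.0041 under median-ratio scaling and -0.01 under quantile normalization, and was not called without SNU2535 DMSO replicate 3 (limma adjusted p = 0.0505).

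The largest differences of the other members were smaller than those of IKZF2 and RBX1. CRBN averaged 4.83 ± 0.0942 TPM in SNU2535, 5.04 ± 0.381 in NCI-H3122 and 6.06 ± 0.521 in NCI-H2228 (SD, n = 3 each). SNU2535 and NCI-H3122 were not called different (log2 difference -0.05, limma adjusted p = 0.582), except after median-ratio scaling (-0.22, 0.0243) and quantile normalization (-0.42, 0.000864). NCI-H2228 was called above SNU2535 (log2 difference -0.27 for SNU2535 minus NCI-H2228, limma adjusted p = 0.00949, and 0.127 after quantile normalization). It was also called above NCI-H3122 (-0.22, limma adjusted p = 0.0233), but that difference was 0.03 relative to the median and 0.03 under median-ratio scaling (0.708). Quantile normalization called the opposite, with NCI-H3122 the higher (0.27, limma adjusted p = 0.00943). The call on TPM was lost without NCI-H3122 DMSO replicates 2 (0.0835) or 3 (0.0562) or NCI-H2228 DMSO replicate 1 (0.0848). DDB1 was highest in SNU2535, at 96.9 ± 1.75 TPM, then NCI-H2228, at 83.8 ± 3.10, and NCI-H3122, at 71.8 ± 1.34 (SD, n = 3 each). All 3 DDB1 steps were called on TPM (limma adjusted p = 1.93e-06 to 0.000371), and the one between NCI-H3122 and NCI-H2228 (-0.22) turned to 0.08 under median-ratio scaling and 0.02 under quantile normalization. GSPT1 rose from 142 ± 2.89 TPM in SNU2535 to 182 ± 3.14 in NCI-H3122 and 197 ± 4.62 in NCI-H2228 (SD, n = 3 each), each pair being called (limma adjusted p = 3e-07 to 0.00399). The GSPT1 step between NCI-H3122 and NCI-H2228 (-0.12) was called in the opposite direction under median-ratio scaling (0.18, limma adjusted p = 0.000819). It was not called after quantile normalization (-0.02, 0.609). ZFP91 was highest in NCI-H3122, at 118 ± 1.93 TPM, against 83.4 ± 2.75 in SNU2535 and 83.5 ± 2.72 in NCI-H2228 (SD, n = 3 each), 2 lines that were not called different (log2 difference -0.0015, 95% interval -0.08 to 0.08, limma adjusted p = 0.975, or 0.10 with 0.0631 under median-ratio scaling). CSNK1A1 stood at 155 ± 3.36, 154 ± 3.49 and 150.3 ± 3.74 TPM in SNU2535, NCI-H3122 and NCI-H2228 (SD, n = 3 each) and was called in no pair on TPM, although relative to the median it differed by -0.15, 0.15 and 0.28, and both median-ratio scaling and quantile normalization called it in all 3 pairs (limma adjusted p = 2.58e-06 to 0.00698). Relative to the median, in the order of pairs above, ZFP91 differed by -0.65, 0.11 and 0.74. GSPT1 differed by -0.51, -0.36 and 0.13, and DDB1 by 0.27, 0.32 and 0.03. SALL4 was too low for this fit.

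Whether the responses themselves differed between lines was tested as the difference of the 2 responses, over genes that each line of the pair kept after its filter on low values. The background here was 20.1% of 13788 genes for SNU2535 against NCI-H3122, 10.6% of 14640 for SNU2535 against NCI-H2228 and 14.3% of 13878 for NCI-H3122 against NCI-H2228. The pairs share lines, so they are not independent. Of 9 members, 1, 0 and 3 were called. IKZF2 responded less in SNU2535 than in NCI-H3122, by -0.33 on the log2 scale (SE 0.0915, limma adjusted p = 0.0225). It responded more in NCI-H3122 than in NCI-H2228, by 0.70 (SE 0.117, limma adjusted p = 0.00152). The second was called in all 20 alternatives that gave a value. The first was lost under median-ratio scaling (-0.22, limma adjusted p = 0.116) and quantile normalization (-0.12, 0.412), and without SNU2535 TRI-611 replicate 1 (0.0536), NCI-H3122 DMSO replicate 2 (0.0524) or NCI-H3122 TRI-611 replicate 2 (0.0557), in a range of 0.0112 to 0.412. Between SNU2535 and NCI-H2228 the IKZF2 difference was 0.37 (95% interval 0.08 to 0.65, limma adjusted p = 0.0989), called at a pseudocount of 5 (0.00942), under median-ratio scaling (0.0480) and quantile normalization (0.0268), in a range of 0.00942 to 0.295.

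ZFP91 fell further in NCI-H3122 than in NCI-H2228 (log2 difference of the responses -0.25, SE 0.0720, limma adjusted p = 0.0354). The call was lost with the replicate block (0.0537), no filter (0.0775), plain empirical Bayes (0.0671), and when any 1 of 8 libraries was left out: NCI-H3122 DMSO replicates 1 (0.0742), 2 (0.0557) and 3 (0.0690), NCI-H3122 TRI-611 replicate 3 (0.0622), NCI-H2228 DMSO replicates 2 (0.0666) and 3 (0.0774), and NCI-H2228 TRI-611 replicates 1 (0.0651) and 3 (0.0810). The SNU2535 response less that of NCI-H3122 was 0.21 (95% interval 0.05 to 0.37, limma adjusted p = 0.0682), which was called in 5 of 21 alternatives, among them median-ratio scaling (0.00611) and leaving out NCI-H3122 TRI-611 replicate 2 (0.0339), in a range of 0.00611 to 0.140. DDB1 differed between NCI-H3122 and NCI-H2228 by 0.17 (SE 0.0523, limma adjusted p = 0.0445). That call was made in 7 of 21 alternatives: it was lost with the replicate block (0.0637), no filter (0.0639), median-ratio scaling (0.176) and plain empirical Bayes (0.0708), and when any of 10 libraries was left out (0.0579 to 0.106, all but NCI-H2228 DMSO replicate 2 and TRI-611 replicate 3). The responses of CRBN, CUL4A, CUL4B, RBX1, GSPT1 and CSNK1A1 were not called different in any pair on TPM, and that of CSNK1A1 was called between SNU2535 and NCI-H3122 under median-ratio scaling (limma adjusted p = 0.0111). For CRBN the differences were 0.03 (95% interval -0.23 to 0.29), 0.28 (0.03 to 0.52) and 0.25 (-0.05 to 0.55) in the order above, and for GSPT1 -0.12 (-0.22 to -0.02), -0.08 (-0.19 to 0.03) and 0.04 (-0.07 to 0.15). The median difference of all genes moved from -0.09 to 0.03 between SNU2535 and NCI-H3122 under median-ratio scaling, and relative to that median the GSPT1 value was -0.03.

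**Figure D4:**
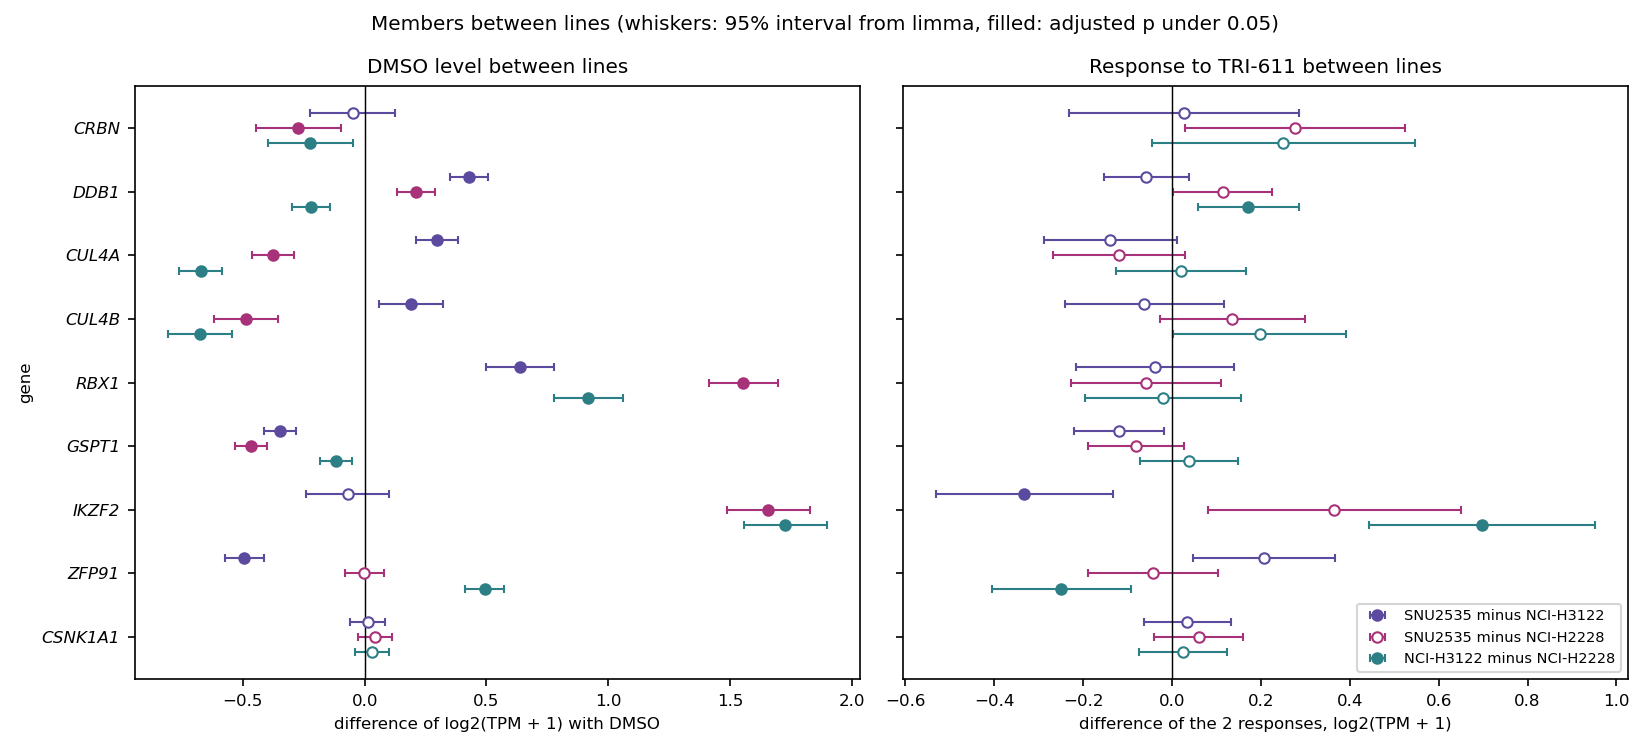
Differences between lines for the 9 genes tested, with 95% intervals from limma (left: DMSO level, right: response to TRI-611, both as differences of log2(TPM + 1), filled where the adjusted p is under 0.05). IKZF2 and RBX1 lie farthest from 0 on the left, and IKZF2 on the right, at -0.33 and 0.70 for the called pairs.

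Around the ligase, 7 lists of 87 genes were followed (3 genes stand in 2 lists). Cullins work only when the small protein NEDD8 is attached to them, and 12 genes of this cycle and of cullin exchange were listed. The counts of each list stand against 10.7% of all genes rising and 18.1% falling in SNU2535 (median of all genes -0.02), 20.6% and 13.4% in NCI-H3122 (0.05), and, for NCI-H2228, 4.8% and 6.4% (0.01). Of 11 tested in SNU2535, 0 rose and 3 fell, with a median of -0.14. There were 2 rises and 3 falls in NCI-H3122 (median -0.04), and 0 rises and 1 fall in NCI-H2228 (median -0.02). The neddylation cofactor DCUN1D5 was called in every line, from 124 ± 11.4 to 83.7 ± 2.53 TPM in SNU2535 (log2 difference -0.56, limma adjusted p = 0.000535), 127 ± 3.91 to 88.6 ± 1.29 TPM in NCI-H3122 (-0.51, 4.68e-05) and 174 ± 2.64 to 140.7 ± 3.45 TPM in NCI-H2228 (-0.31, 0.000950), each with n = 3 and SD. UBE2M, the NEDD8-conjugating enzyme, fell in SNU2535 (-0.54, limma adjusted p = 0.00144) and NCI-H3122 (-0.53, 0.000183) and measured 142 and 141 TPM in NCI-H2228. DCUN1D3 fell in the same lines (-0.44 and -0.47, limma adjusted p = 0.00172 and 0.00348). Among the 10 subunits of the COP9 signalosome, which removes NEDD8, COPS3 fell in each line (-0.16, -0.16 and -0.24, limma adjusted p = 0.00537, 0.0224 and 0.0125) and no other was called. Other scalings called more subunits, with 3 falls in NCI-H3122 under median-ratio scaling and 2 under quantile normalization, which also gave 1 rise in SNU2535. These scalings moved the calls of all genes too. In NCI-H3122 the falls went from 2054 of 15311 to 3163 and 2564, and quantile normalization took the rises in SNU2535 from 1731 of 16252 to 2500. The COPS3 call was lost in NCI-H3122 without DMSO replicates 1 (0.0698) or 3 (0.0923) or TRI-611 replicates 1 (0.0523) or 3 (0.0540) and with the replicate block (0.0539), no filter (0.0551) or plain empirical Bayes (0.0640), and the last also ended the NCI-H2228 call (0.0593).

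The list of ubiquitin-conjugating enzymes with DDA1, a DDB1-binding factor, and the deubiquitinase USP15 had 0 rises and 4 falls among 7 in SNU2535, where 18.1% of all genes fell (median -0.20 against -0.02). There were 1 rise and 3 falls in NCI-H3122, where 13.4% of all genes fell (-0.09 against 0.05), and 0 rises and 1 fall in NCI-H2228, where 6.4% fell (-0.07 against 0.01). With the replicate block these were 0 and 4, 1 and 1, and 0 and 0. Of all genes, that fit gave 1409 rises and 2648 falls of 16252, 2513 and 1781 of 15311, and 782 and 942 of 16806. DDA1 went from 86.2 ± 3.83 to 66.6 ± 2.87 TPM in SNU2535 (log2 difference -0.37, limma adjusted p = 0.00104) and from 45.5 ± 2.54 to 38.2 ± 1.81 TPM in NCI-H3122 (-0.25, 0.0117; SD, n = 3 each). UBE2G1, a conjugating enzyme that glue degraders depend on, fell in SNU2535 (-0.31, limma adjusted p = 0.00288), and UBE2D1 rose in NCI-H3122 (0.39, 0.0110). UBE2D2 fell in each line, with log2 differences of -0.23 in SNU2535, -0.11 in NCI-H3122 and -0.14 in NCI-H2228 (limma adjusted p = 0.0010, 0.0427 and 0.0324). Its NCI-H3122 and NCI-H2228 calls were lost without any 1 of the 6 libraries of the line (0.0626 to 0.135 and 0.0559 to 0.123), with the replicate block (0.0956 and 0.0602), no filter (0.0824 and 0.0672) and plain empirical Bayes (0.109 and 0.121), and the NCI-H2228 call also with quantile normalization (0.0874). The USP15 call in NCI-H3122 (-0.19, limma adjusted p = 0.0458) was likewise lost without any 1 of the 6 libraries of that line (0.0675 to 0.132), with the replicate block (0.118), no filter (0.0903) and no mitochondrially encoded genes (0.0754).

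Cereblon competes with other receptors for DDB1, and 20 of these were listed and tested. In NCI-H3122 11 rose and 3 fell, where 20.6% of all genes rose and 13.4% fell, with a median of 0.23 against 0.05 for all genes. In SNU2535 7 rose and 3 fell (10.7% and 18.1% of all genes, median -0.04 against -0.02), and 0 rose and 1 fell in NCI-H2228 (4.8% and 6.4%, median 0.03 against 0.01). The NCI-H3122 count was 11 and 3 under median-ratio scaling and 9 and 3 under quantile normalization, and 10 and 1 with the replicate block. In the same order, 2508, 2887 and 2513 of all 15311 genes rose and 3163, 2564 and 1781 fell. DCAF8, DCAF16 and DCAF7 rose in NCI-H3122 (0.44, 0.41 and 0.36, limma adjusted p = 0.00451, 0.00431 and 0.000203), and DCAF7 also rose in SNU2535 (0.20, 0.00243). DCAF16 is itself a receptor used by some degraders. In SNU2535 DCAF11, another receptor used by degraders, went from 51.3 ± 0.604 to 64.9 ± 0.814 TPM (SD, n = 3 each), or 0.33 on the log2 scale (limma adjusted p = 0.000307), and DTL, the receptor of replication licensing, rose by 0.24 (0.00942). Both also rose in NCI-H3122, DCAF11 by 0.30 (limma adjusted p = 0.00206) and DTL by 0.33 (0.00347). DCAF4 was called in opposite directions: it fell in SNU2535 (-0.48, limma adjusted p = 0.00306) and NCI-H2228 (-0.28, 0.0174, and 0.0545 and 0.0503 without TRI-611 replicates 2 and 3), and rose in NCI-H3122 from a mean of 8.15 to 10.3 TPM (0.31, 0.0148). The NCI-H3122 call was lost with quantile normalization (0.0538) and without DMSO replicate 3 (0.0593) or TRI-611 replicates 2 (0.0507) or 3 (0.0505). Of the 6 other cullins and the RING protein RNF7, none rose in any line. There were 4 falls in SNU2535, 1 in NCI-H3122 and 0 in NCI-H2228 (18.1%, 13.4% and 6.4% of all genes fell), against 2 in SNU2535 with the replicate block or quantile normalization and 4 in NCI-H3122 under median-ratio scaling. In those settings, 2648 and 2415 of all 16252 genes fell in SNU2535, and 3163 of 15311 fell in NCI-H3122. CUL1 and CUL2 fell in SNU2535 (-0.26 and -0.22, limma adjusted p = 0.00588 and 0.00829), as did CUL5 (-0.25, 0.0330, and 0.0516 with the replicate block, 0.0915 with no filter, 0.0814 with quantile normalization, 0.0707 with plain empirical Bayes, 0.0946 and 0.104 without DMSO replicates 1 and 3, and 0.0616 without TRI-611 replicate 1). CUL3 fell in NCI-H3122 (-0.18, 0.0189, and 0.0627, 0.0532 and 0.0557 without DMSO replicates 2 and 3 and TRI-611 replicate 3).

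Of 20 further reported neosubstrates, 17 were tested in each line: 3 rose and 8 fell in SNU2535, against 10.7% and 18.1% of all genes (median -0.21 against -0.02). In NCI-H3122 5 rose and 1 fell, against 20.6% and 13.4% (0.05 for the list and for all genes), while 2 rose and 0 fell in NCI-H2228, against 4.8% and 6.4% (0.04 against 0.01). IKZF3 (Aiolos), a relative of IKZF2 and itself a target of lenalidomide, fell in SNU2535, where IKZF2 rose. It went from 4.16 ± 0.349 to 1.17 ± 0.157 TPM (SD, n = 3 each), or -1.25 on the log2 scale (SE 0.123, limma adjusted p = 0.000254). In NCI-H3122 and NCI-H2228 IKZF3 had means of 0.0716 TPM or less, and the founding member IKZF1 reached at most 0.120 TPM in any library. The zinc finger genes ZNF653 and ZNF276 fell in SNU2535 (-0.56 each, limma adjusted p = 0.00383 and 0.00476), and ZNF827 rose in NCI-H3122 (0.57, 0.00545). TP63 went from 33.3 ± 0.745 to 66.0 ± 5.43 TPM in NCI-H3122 (SD, n = 3 each), or 0.96 on the log2 scale (limma adjusted p = 3.02e-05), and also rose in SNU2535 (0.32, 0.00224). WEE1, the mitotic entry kinase, rose in each line (0.28, 0.46 and 0.62 in SNU2535, NCI-H3122 and NCI-H2228, limma adjusted p = 0.0164, 0.000261 and 0.00144). Its SNU2535 call was lost without DMSO replicates 2 (0.0550) or 3 (0.0550) or TRI-611 replicates 2 (0.0570) or 3 (0.0574). NEK7, an inflammasome kinase, rose in SNU2535 (0.28, limma adjusted p = 0.0140) and NCI-H2228 (0.28, 0.00880).

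Paralogues of the listed substrates were followed in a list of 14. Those tested numbered 9, 8 and 9 by line, with 1 rise and 4 falls in SNU2535 (10.7% and 18.1% of all genes, median -0.05 against -0.02), 1 rise and 1 fall in NCI-H3122 (20.6% and 13.4%, 0.07 against 0.05) and 0 of either in NCI-H2228 (4.8% and 6.4%, 0.04 against 0.01). The single rises and the NCI-H3122 fall were near or below the shares of all genes. With the replicate block there was no rise in SNU2535 or NCI-H3122, where 1409 of 16252 and 2513 of 15311 genes rose in that fit. GSPT2, the sister of GSPT1, was far below it, at 9.99 ± 1.08 TPM in SNU2535 controls, and fell there to 7.12 ± 0.615 TPM (SD, n = 3 each), or -0.43 on the log2 scale (limma adjusted p = 0.0115). CSNK1E, a relative of CSNK1A1, fell in SNU2535 (-0.25, limma adjusted p = 0.00992) and NCI-H3122 (-0.32, 0.000537). IKZF5 was the rise in both SNU2535 (0.22, limma adjusted p = 0.0483) and NCI-H3122 (0.21, 0.0225). The SNU2535 call was lost with the replicate block (0.101), no filter (0.0924), the fit of all 18 libraries (0.0600) and without any 1 of the 6 libraries of the line (0.0637 to 0.135). The NCI-H3122 call was lost with the replicate block (0.0739), no filter (0.0501), the fit of all 18 libraries (0.0595), quantile normalization (0.0563) and median-ratio scaling (0.0581), and without DMSO replicates 2 (0.0678) or 3 (0.0840) or TRI-611 replicates 2 (0.0600) or 3 (0.0721).

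**Figure D5:**
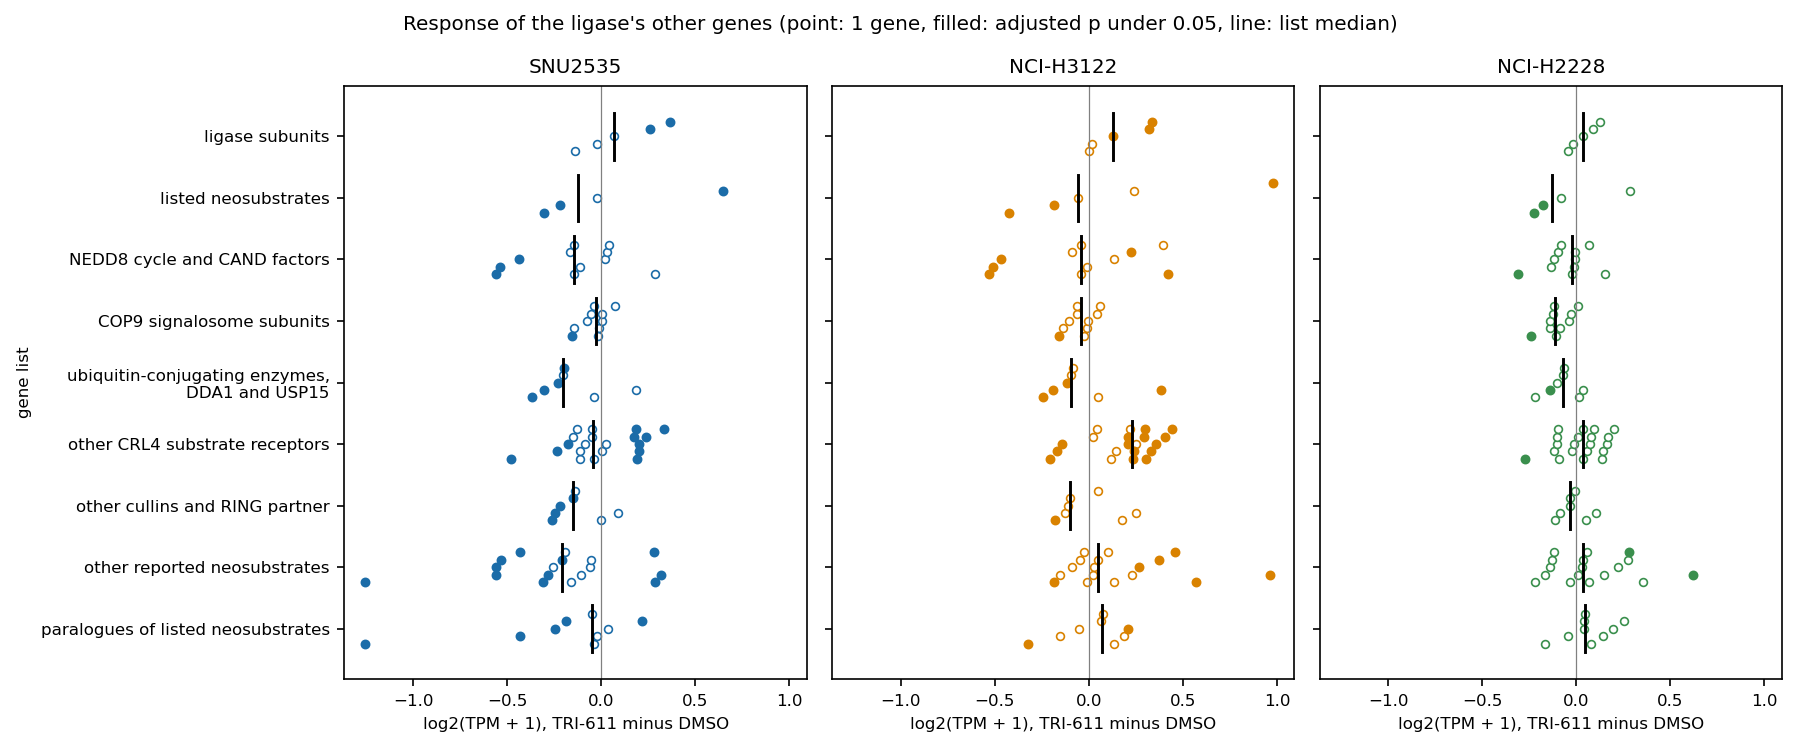
Log2 difference in TPM + 1 between TRI-611 and DMSO (horizontal axis) for each tested gene of the 9 lists, by line, filled where the adjusted p is under 0.05, with the list median as a black line. The receptors in NCI-H3122 lie mostly to the right (median 0.23), and the other cullins in SNU2535 mostly to the left (median -0.15). The 2 upper lists are the members.

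The genes most like 3 of the members were sought among 16792 genes with a mean of 1 TPM or more, by Pearson's r of log2(TPM + 1) over the 18 libraries. These libraries share lines and treatments, so r describes the common pattern of the 6 groups and carries no p. For GSPT1 they were PAK1IP1 (0.987), GEMIN5 (0.987) and NAA50 (0.982). PAK1IP1, a ribosome assembly factor, went from 25.0 to 13.4 TPM in SNU2535, 55.5 to 37.3 in NCI-H3122 and 71.0 to 52.5 in NCI-H2228 in group means, a lower level with TRI-611 in each line, as for GSPT1. For IKZF2 they were RNF144B (0.992), RBBP8NL (0.992) and BICRA (0.991). RNF144B, a ubiquitin ligase gene, went from 20.2 to 45.5 TPM in SNU2535 and 25.1 to 62.8 in NCI-H3122, and stood at 2.42 and 2.47 TPM in NCI-H2228. For CRBN they were POLR2M (0.903), RB1CC1 (0.902) and CWF19L2 (0.869), and RB1CC1, an autophagy initiation factor, went from 22.3 to 35.6, 24.5 to 48.0 and 34.1 to 41.4 TPM in SNU2535, NCI-H3122 and NCI-H2228.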

How the data were processed

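RNA from 18 libraries of 3 cell lines was measured as TPM in 1 table that the authors deposited, in which every library sums to 1000000. Per the labels' protocols, poly-A RNA was made into libraries with a kit that adds molecular identifiers. The build was GRCh38 and the tools included STAR 2.5.2b, fastp 0.23.1, DESeq2 and featureCounts (Subread 1.5.2), per the submitters' processing notes, which assign no step to any of them. The sources used here do not give the gene annotation, the strand setting, the use of the identifiers or the step from counts to TPM. TPM keeps no read depth, so the depth and the counting error of each library are unknown. No column belonged to other samples (0 found), and 0 pairs of libraries held identical values. Positions and overlaps of genes came from GENCODE release 29.

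Differences were computed on log2(TPM + 1) from the deposited TPM, for genes at 1 TPM or more in at least 3 libraries of the fit. The test was limma 3.58.1 in R 4.3.3, with empirical Bayes moderation (trend and robust) and Benjamini-Hochberg adjustment over all genes tested, called under 0.05 and two-sided. Each line was fitted on its own 6 libraries, levels between lines on the 9 DMSO libraries, and differences in response on the libraries of both lines. The fits were tested on simulated data with known changes. In that single simulation per fit, the share of false calls lay above the threshold for the 3 differences in response, for SNU2535 and for the DMSO levels of SNU2535 against NCI-H3122. The labels call the replicate number a batch, so libraries of the same number were treated as paired in the fit with the replicate block. Their deviations from the group means correlated at -0.0865 to 0.101 across genes. Alternatives were the pseudocounts 0.1 and 5, no filter, a mean TPM of 5 or more, median-ratio scaling, quantile normalization, no mitochondrially encoded genes, plain empirical Bayes, the block, a fit of all 18 libraries, and leaving out each library. Tables and figures were made with Python 3.11.15, pandas 2.3.3 and matplotlib 3.10.9.

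The members and the gene lists were chosen with earlier results of these data known. All 10 members were named. Of each other list, up to 3 genes per line were named, the called ones with the largest absolute change whose groups did not overlap (given also in other lines where they were called), and for CRBN, GSPT1 and IKZF2 the 3 genes of the highest correlation.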

Additional observations from a re-analysis of the deposited data

Results flagged for a closer look

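The response to TRI-611 was called different between lines for 3 members in 4 comparisons, tested in limma as the difference of the 2 responses on the log2(TPM + 1) scale. Of all genes tested, 20.1% were called between SNU2535 and NCI-H3122, 10.6% between SNU2535 and NCI-H2228, and 14.3% between NCI-H3122 and NCI-H2228. With 9 members tested per pair, the count of calls is no result about the members. For IKZF2 the SNU2535 response less that of NCI-H3122 was -0.33 (limma adjusted p = 0.0225), and the treated library was the higher of its batch in 3 of 3 batches in both lines. The NCI-H3122 response of IKZF2 less that of NCI-H2228 was 0.70 (limma adjusted p = 0.00152). For ZFP91 the NCI-H3122 response less that of NCI-H2228 was -0.25 (limma adjusted p = 0.0354), with lower treated libraries in 3 of 3 batches of each line. For DDB1 the same difference was 0.17 (limma adjusted p = 0.0445), with higher treated libraries in 3 of 3 batches of NCI-H3122 and in 1 of 3 of NCI-H2228. Over 21 alternatives the DDB1 call was lost in 14, the ZFP91 call in 11 and the first IKZF2 call in 5. The second IKZF2 call was made in all 20 alternatives that gave a value. No reason for these differences was tested.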

How the results depend on the processing

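Over all member results and alternatives, 1357 of 1497 values kept their direction and their side of the threshold, 63 kept the direction but were no longer called, 24 became calls and 53 turned sign. In NCI-H2228 the genes called numbered 1882, against 1052 with no filter, 1177 with plain empirical Bayes and 1133 to 1746 when a library was left out. The members called there, 2, became 1 with no filter, quantile normalization, no mitochondrially encoded genes or the replicate block, 0 with plain empirical Bayes, 3 in the fit of all libraries and 1 to 2 when a library was left out. The members whose response differed between lines went from 1 to 2 between SNU2535 and NCI-H3122 (mean TPM of 5 or more, median-ratio scaling, no mitochondrially encoded genes) and to 0 to 1 without a library. Between SNU2535 and NCI-H2228 they went from 0 to 1 (pseudocount 5, quantile normalization) or 2 (median-ratio scaling), and between NCI-H3122 and NCI-H2228 from 3 to 1 (no filter, plain empirical Bayes, replicate block) and 1 to 2 without a library. All genes called in these 3 pairs numbered 2769, 1547 and 1988. Over the settings that kept every library they ranged from 2377 to 3216, 1154 to 1843 and 1669 to 2287. Without a library they ranged from 2110 to 2867, 1083 to 1885 and 1548 to 1953. Taking the ratio of medians, the CUL4A share in SNU2535 was 61.7% with DMSO and 56.5% with TRI-611.

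The following log2 differences turned sign. Under median-ratio scaling the TRI-611 response became 0.0045 for RBX1 and 0.0021 for CSNK1A1 in SNU2535 and -0.0546 for RBX1 in NCI-H3122. Quantile normalization gave 0.0297 for RBX1 and 0.0243 for CSNK1A1 in SNU2535, and for CUL4A 0.0020 in NCI-H3122 and 0.0220 in NCI-H2228. Without mitochondrially encoded genes CUL4A became 0.0225 in NCI-H3122 and 0.0077 in NCI-H2228. In DMSO levels, median-ratio scaling and quantile normalization gave -0.0041 and -0.0136 for CUL4B and -0.187 and -0.0900 for CSNK1A1 between SNU2535 and NCI-H3122, 0.0999 and 0.0718 for ZFP91 between SNU2535 and NCI-H2228, and 0.0322 and 0.275 for CRBN and 0.0798 and 0.0211 for DDB1 between NCI-H3122 and NCI-H2228. GSPT1 became 0.183 there under median-ratio scaling, and CSNK1A1 -0.0273 without mitochondrially encoded genes between SNU2535 and NCI-H3122. Some of these DMSO values were calls in the new direction. They were CRBN under quantile normalization (limma adjusted p = 0.00943), GSPT1 (0.000819), and CSNK1A1 under median-ratio scaling (0.000183) and quantile normalization (0.00698). In differences of response, median-ratio scaling gave 0.0745 for DDB1, 0.0669 for CUL4B, 0.0928 for RBX1 and 0.0133 for GSPT1 between SNU2535 and NCI-H3122, 0.0069 for RBX1 and 0.0227 for ZFP91 between SNU2535 and NCI-H2228, and -0.0427 for CUL4A, -0.0254 for GSPT1 and -0.0384 for CSNK1A1 between NCI-H3122 and NCI-H2228. Quantile normalization gave 0.0276 for CUL4B and 0.0013 for RBX1 in the first pair and -0.0191 for CUL4A in the last. The cause was not tested.

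Leaving out 1 library also turned signs. The TRI-611 response ranged from -0.0706 to 0.0320 for RBX1 in SNU2535, -0.0311 to 0.0369 for CUL4A and -0.0141 to 0.0741 for RBX1 in NCI-H3122, and -0.0463 to 0.0243 for CUL4A and -0.0106 to 0.0734 for RBX1 in NCI-H2228. DMSO levels ranged from -0.0064 to 0.0253 for CSNK1A1 (SNU2535 less NCI-H3122) and -0.0281 to 0.0225 for ZFP91 (SNU2535 less NCI-H2228). Differences in response ranged from -0.0524 to 0.0964 for CRBN and -0.0956 to 0.0146 for RBX1 (SNU2535 less NCI-H3122), and from -0.0245 to 0.0571 for CUL4A and -0.0560 to 0.0371 for RBX1 (NCI-H3122 less NCI-H2228).

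The limits are 3 libraries per group, whose independence the labels do not state, a single dose and time, RNA without protein, and TPM without depth. Several calls near the threshold, in each of the 3 lines, were lost when a library was left out or the processing was changed, as given with each gene.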
